A study of Homo sapiens with 12 samples.

Results

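The mitochondrial ribosomal protein genes are the nuclear genes with the symbols MRPL and MRPS, for proteins of the large and small subunit of the ribosome inside mitochondria. Their members were taken by symbol, MRPL or MRPS followed by a number and at most 1 letter, from probe sets that carry a single symbol. Where several probe sets name a gene, the one brightest on average stood for it. The rule gave 75 genes, all of which passed the filter on low values, of 12689 genes tested and 19775 genes with a probe set. The 75 genes had 140 probe sets with a single symbol, and 37 of them had more than 1. Another 2 symbols of the family, MRPS24 and MRPL53, are only on probe sets shared with other genes and were left out. By the current nomenclature 50 members belong to the large subunit, MRPS30 (mL65) and MRPS18A (mL66) among them, and 25 to the small subunit.

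The mitochondrial ribosome translates the few proteins that mitochondrial DNA encodes, all of them subunits of the respiratory chain and the ATP synthase. Its RNAs come from mitochondrial DNA, but its proteins are made in the cytosol from nuclear genes scattered over many chromosomes and are imported. Some of them descend from bacterial ribosomal proteins, and others are found in mitochondria and have no bacterial counterpart. Acute myeloid leukaemia cells are known for a dependence on mitochondrial translation.

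The cells were ML-2, an established human acute myeloid leukaemia line. The combination group received 2 µM SGI-110 for 24 h and then 5 µM ASTX660 for 9 h. The SGI-110 group received 2 µM SGI-110, labelled as 33 h, and solvent in place of ASTX660. The ASTX660 group received solvent and then 5 µM ASTX660 for 9 h, and the control group received solvent at both steps. SGI-110 is guadecitabine, a dinucleotide of decitabine and deoxyguanosine that inhibits DNA methylation, and ASTX660 antagonises inhibitor of apoptosis proteins. The sources used here do not say whether SGI-110 stayed on the cells during the ASTX660 step. Each group held 3 arrays from independent experiments numbered 2, 9 and 13, and the 3 values of a group are given in that order throughout. The comparison used most below sets the mean of the combination and SGI-110 groups (6 arrays) against the mean of the ASTX660 and solvent groups (6 arrays) and is called the comparison by SGI-110. In RNA of all cells together, a smaller share of cells expressing a gene and less of its RNA per cell cannot be told apart.

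All levels are log2 intensities, so 1 unit is a doubling of brightness, and differences are in the same log2 units. Brightness depends on the probes, so levels are compared between arrays and not between genes. Array medians lay between 4.69 and 4.77, correlations between arrays of a group between 0.9956 and 0.998, and no pair of arrays held identical values. Of 8 myeloid markers 7 had a probe set, and MPO, LYZ and CEBPA were bright, with group means of at least 10.75 on every treatment. Lymphoid, erythroid and fibroblast or epithelial markers stayed at or below 8.16 in all group means, and the defining EPCAM and KRT19 were at or below 4.06. EPOR (7.99) and COL1A1 (7.65) were nevertheless brighter than SPI1, ITGAM and ANPEP. Of the 6 myeloid markers tested, 3 passed the threshold in the comparison by SGI-110, all 3 higher, beside 15.8% of all tested genes called higher. By limma they were ITGAM (0.78, adjusted p = 0.023), LYZ (0.21, 0.00189) and CEBPA (0.17, 0.00175). SPI1 (0.25, 0.0563), CSF3R (0.16, 0.122) and MPO (−0.07, 0.47) did not pass. The summed intensity of the 7 markers ran from 22669 to 24243 with the combination, 22680 to 24612 with SGI-110, 21895 to 22866 with ASTX660 and 21252 to 23449 with solvent, ranges that overlap. On this linear scale the brightest markers, MPO and LYZ, make up most of the sum. It therefore cannot show a change of a dim marker such as ITGAM. Their part in the results was not tested.

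The sequences upstream of the members' start sites show what the promoters of several changed members look like. RefSeq start sites (GRCh38.p14) were matched for 67 of the 75 members, and 5 members with called changes are shown by the 250 bases before the start: MRPL3, MRPL58 and MRPS26, which were lower after SGI-110, and MRPL41 and MRPL33, which were higher. Capitals mark CCGGAAG, the core of ETS factor sites such as that of GABPA, on either strand (CTTCCGG), and in MRPL41 the CCAAT box on either strand (ATTGG).
MRPL3, chr3:131502972-131503221 on the minus strand: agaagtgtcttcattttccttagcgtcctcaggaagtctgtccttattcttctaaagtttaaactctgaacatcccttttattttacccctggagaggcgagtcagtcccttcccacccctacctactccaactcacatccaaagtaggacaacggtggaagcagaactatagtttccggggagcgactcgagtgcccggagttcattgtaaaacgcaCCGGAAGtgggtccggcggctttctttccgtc
MRPL58, chr17:75012420-75012669 on the plus strand: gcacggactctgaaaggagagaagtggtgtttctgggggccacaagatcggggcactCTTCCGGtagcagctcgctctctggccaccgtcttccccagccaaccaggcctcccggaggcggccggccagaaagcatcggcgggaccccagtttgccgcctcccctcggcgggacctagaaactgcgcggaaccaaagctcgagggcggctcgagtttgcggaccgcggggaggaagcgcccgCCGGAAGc
MRPS26, chr20:3045802-3046051 on the plus strand: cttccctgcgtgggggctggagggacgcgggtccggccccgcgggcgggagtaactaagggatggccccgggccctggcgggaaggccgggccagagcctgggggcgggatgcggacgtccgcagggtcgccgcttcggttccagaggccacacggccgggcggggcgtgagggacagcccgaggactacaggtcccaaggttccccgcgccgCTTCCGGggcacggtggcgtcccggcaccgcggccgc
MRPL41, chr9:137551629-137551878 on the plus strand: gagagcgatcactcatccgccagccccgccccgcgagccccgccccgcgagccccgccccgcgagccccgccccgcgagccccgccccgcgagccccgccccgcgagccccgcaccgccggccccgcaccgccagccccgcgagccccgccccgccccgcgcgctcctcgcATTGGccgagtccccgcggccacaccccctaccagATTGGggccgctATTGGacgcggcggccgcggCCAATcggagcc
MRPL33, chr2:27771469-27771718 on the plus strand: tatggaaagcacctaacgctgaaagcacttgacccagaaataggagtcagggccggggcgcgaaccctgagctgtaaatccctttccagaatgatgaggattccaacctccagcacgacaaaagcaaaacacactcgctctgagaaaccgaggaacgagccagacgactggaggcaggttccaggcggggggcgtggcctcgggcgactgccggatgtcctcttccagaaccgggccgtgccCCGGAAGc

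The ETS core lies close to the start in MRPL3, MRPL58, MRPS26 and MRPL33, another copy lies further upstream in MRPL58, and MRPL41 holds none in these bases. CpG dinucleotides, where DNA methylation sits, number 12 in the MRPL3 sequence, 24 in MRPL58, 32 in MRPS26, 43 in MRPL41 and 17 in MRPL33. Over windows of 300 bases (250 before and 50 after the start), 29 of 67 members (43.3%) held CCGGAAG, against 22.3% of 9677 tested genes with a window. The sequences shown are examples, since only 13 of 31 members with a lower call in the comparison by SGI-110 held CCGGAAG. Members with large falls and none in their windows include MRPL4, MRPS2, MRPL50 and MRPS27. AAGATGG, the core of a YY1 site, was found in 23 members (34.3%), against 9.57% of tested genes. The NRF1 motif GCGCANGCG was found in 20.9% of members and 16.6% of tested genes, the E-box CACGTG bound by MYC in 13.4% and 12.6%, and the CCAAT box in 34.3% and 43.1%. Both strands were searched, none of these motifs contains another, and a match is a string of letters and not a measured site. The median ratio of observed to expected CpG was 0.871 in the members' windows and 0.811 in those of the tested genes.

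The motifs occurred in members with and without a call. CCGGAAG was present in 13 of 31 members with a lower call in the comparison by SGI-110 (41.9%), 2 of 5 with a higher call and 14 of 31 with no call (45.2%). AAGATGG was present in 9 of the 31 lower members (29.0%), 1 of the 5 higher members and 13 of the 31 without a call (41.9%). The median CpG ratio was 0.887, 0.782 and 0.863 in the same order, and no test was made of these differences. Head-to-head arrangement, with another gene's start at most 1000 bases upstream on the other strand, was found for 20 of the 67 members (29.9%), against 16.2% of the tested genes. MRPS11 and MRPL46 share such a promoter region with each other, and MRPL49 shares one with FAU, a gene for a cytosolic ribosomal protein. In the comparison by SGI-110 MRPS11 differed by 0.09 ± 0.0316 (SE; adjusted p = 0.0387) and MRPL46 by −0.10 ± 0.0384 (SE; adjusted p = 0.0561), the signs being opposite.

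Members of the family were more often lower than higher after SGI-110. In the comparison by SGI-110, 41 of 75 members passed an adjusted p of 0.05 (limma, Benjamini-Hochberg over 12689 genes), 36 lower and 5 higher. Among all tested genes 14.1% were called lower, 15.8% higher and 29.9% in either direction, against 48.0%, 6.67% and 54.7% of the members. The median difference was −0.11 over the members and −0.00464 over all tested genes. The changes were small: the lowest was −0.40, the highest 0.21, and 64 of 75 differences were negative. All 6 arrays with SGI-110 lay below all 6 without it for 26 members, and above them for 4 (MRPL27, MRPL33, MRPL41 and MRPL49). Among all tested genes 7.92% lay below and 8.5% above without overlap. The members' probe sets were brighter than this background, with a median level of 10.03 against 7.7. They also varied less within groups, with a median SD of 0.06295 against 0.1019. Smaller changes can pass a threshold where the spread is low, and the background shares were not matched for brightness or spread.

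**Figure D1:**
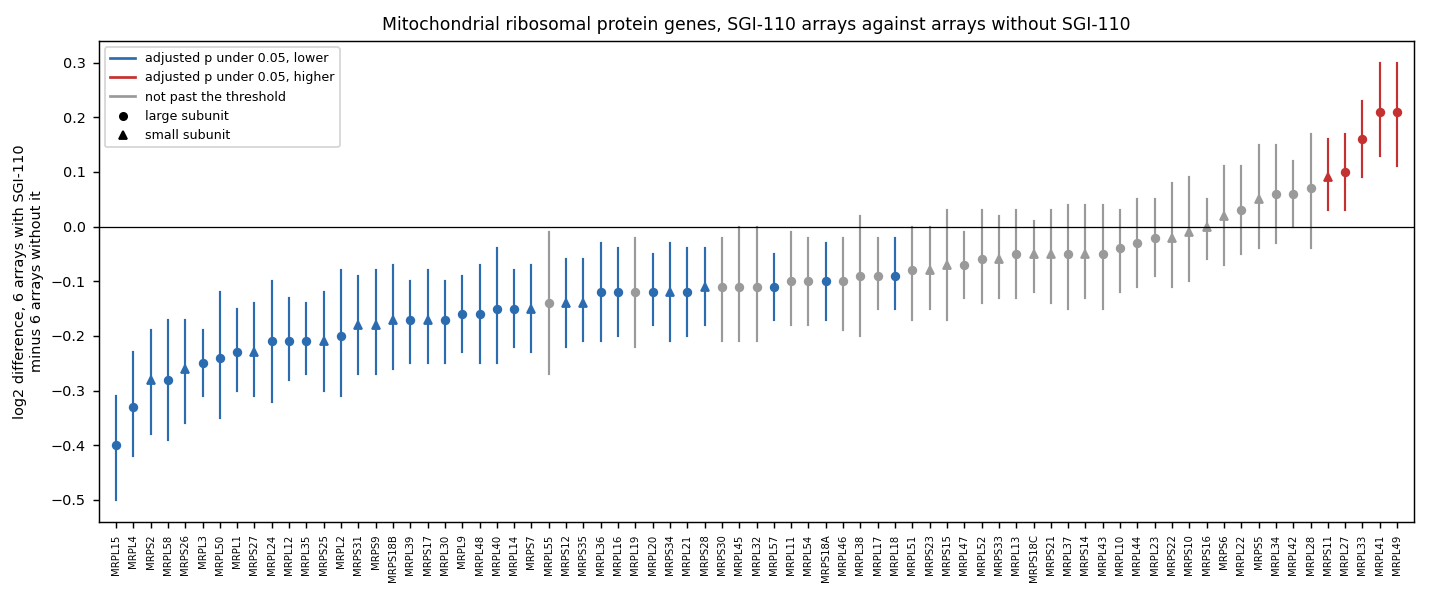
Log2 difference of each of the 75 genes, 6 arrays with SGI-110 minus 6 arrays without it, sorted from lowest to highest. Points are estimates, lines their 95% confidence intervals, circles large-subunit and triangles small-subunit genes, blue and red a lower and a higher call. From −0.40 (MRPL15) to 0.21 (MRPL49), 36 genes are called lower and 5 higher.

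The lower level was spread over both subunits and over both evolutionary classes. In the large subunit 23 of 50 genes were called lower and 4 higher, and in the small subunit 13 of 25 lower and 1 higher. Of 45 members with a bacterial homologue 22 were lower and 3 higher, and of 30 mitochondria-specific members 14 were lower and 2 higher. The median difference was −0.11 in each of these 4 classes. By subunit and origin, 16 of 30 large-subunit members with a bacterial homologue were lower (2 higher, median −0.12), and 7 of 20 large-subunit members without one (2 higher, median −0.10). In the small subunit, 6 of 15 members with a bacterial homologue were lower (1 higher, median −0.05), and 7 of 10 members without one (0 higher, median −0.15). Differences between the classes were not tested.

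The fall of MRPL15 was the furthest from 0. MRPL15 (uL15m) is a large-subunit protein with a bacterial counterpart. Its level was 10.76, 10.94 and 10.66 with the combination, 10.71, 10.82 and 10.74 with SGI-110, 11.17, 11.24 and 11.11 with ASTX660 and 11.20, 11.22 and 11.10 with solvent. The 6 arrays with SGI-110 all lay below the 6 without it, and the highest of them, combination array 9, was still below the lowest solvent array. The log2 difference was −0.40 ± 0.0450 (SE; adjusted p = 1.81e-05), so that the level fell by 24.3%. MRPL4 (uL4m), which lines the exit tunnel for the growing peptide, came next. Its level was 9.63, 9.56 and 9.45 with the combination, 9.43, 9.56 and 9.49 with SGI-110, 9.77, 9.87 and 9.87 with ASTX660 and 9.86, 9.91 and 9.79 with solvent, again without overlap. The difference of MRPL4 was −0.33 ± 0.0430 (SE; adjusted p = 7.83e-05), and its level fell by 20.2%.

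MRPL3 (uL3m) reaches towards the peptidyl transferase centre. It measured 11.96, 12 and 11.92 with the combination, 11.97, 12.01 and 11.92 with SGI-110, 12.21, 12.23 and 12.14 with ASTX660 and 12.25, 12.24 and 12.18 with solvent. Within the arrays with SGI-110 it varied by 0.09, and within those without SGI-110 by 0.11, and the groups were clearly apart. The difference was −0.25 ± 0.0266 (SE; adjusted p = 1.21e-05), the smallest adjusted p of the family. MRPL1 (uL1m) forms the stalk beside the site where tRNAs leave. It was at 9.60, 9.61 and 9.59 with the combination, 9.49, 9.58 and 9.58 with SGI-110, 9.86, 9.80 and 9.76 with ASTX660 and 9.86, 9.78 and 9.75 with solvent, with no overlap between arrays with and without SGI-110 and a difference of −0.23 ± 0.0365 (SE; adjusted p = 0.000358). MRPL12 (bL12m), in the stalk that receives translation factors, had a mean of 10.88 ± 0.0627 with SGI-110 and 11.09 ± 0.0485 without it (SD, n = 6 arrays each). Its difference by limma was −0.21 ± 0.0357 (SE; adjusted p = 0.00062).

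MRPL58, once called ICT1 (mL62), is a peptidyl-tRNA hydrolase built into the large subunit that can free stalled ribosomes. Its values were 9.53, 9.44 and 9.40 with the combination, 9.27, 9.49 and 9.39 with SGI-110, 9.86, 9.66 and 9.58 with ASTX660 and 9.68, 9.75 and 9.69 with solvent. SGI-110 array 2 was the lowest and ASTX660 array 2 the highest, and no array with SGI-110 reached one without it. The difference was −0.28 ± 0.0525 (SE; adjusted p = 0.00107). MRPL50 (mL50), a mitochondria-specific protein, stood at 8.28, 8.45 and 8.40 with the combination, 8.46, 8.53 and 8.41 with SGI-110, 8.73, 8.55 and 8.68 with ASTX660 and 8.74, 8.54 and 8.72 with solvent. Its arrays did not overlap, although SGI-110 array 9 came within 0.01 of solvent array 9, and the difference was −0.24 ± 0.0527 (SE; adjusted p = 0.0035). MRPL35 (bL35m) gave 10.01, 10.05 and 10 with the combination, 9.92, 9.98 and 9.96 with SGI-110, 10.18, 10.15 and 10.18 with ASTX660 and 10.18, 10.27 and 10.19 with solvent. Its arrays with SGI-110 were all at or below 10.05 and the others at or above 10.15, with a difference of −0.21 ± 0.0319 (SE; adjusted p = 0.000276). The other 2 probe sets of MRPL35 gave −0.29 and −0.39.

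In the small subunit, MRPS2 (uS2m), the counterpart of bacterial S2, changed most. It measured 9.07, 9.03 and 8.93 with the combination, 8.91, 9.08 and 9.02 with SGI-110, 9.28, 9.38 and 9.29 with ASTX660 and 9.24, 9.34 and 9.23 with solvent. Arrays with and without SGI-110 did not overlap, and the difference was −0.28 ± 0.0446 (SE; adjusted p = 0.000293). MRPS26 (mS26) has no bacterial homologue and was at 8.72, 8.60 and 8.62 with the combination, 8.56, 8.63 and 8.63 with SGI-110, 8.96, 8.85 and 8.94 with ASTX660 and 8.79, 8.93 and 8.87 with solvent. Its arrays with SGI-110 reached at most 8.72 and the others at least 8.79, with a difference of −0.26 ± 0.0433 (SE; adjusted p = 0.000403). MRPS27 (mS27), a pentatricopeptide repeat protein, was at 9.94, 10.15 and 10.07 with the combination, 10.03, 10.19 and 10.11 with SGI-110, 10.32, 10.33 and 10.30 with ASTX660 and 10.28, 10.31 and 10.31 with solvent. The arrays without SGI-110 varied by 0.05 and those with it by 0.25, with no overlap. Its difference was −0.23 ± 0.0409 (SE; adjusted p = 0.000878), and with all probe sets of the gene averaged it was −0.12 (adjusted p = 0.0682). The other probe set of MRPS27 has a mean level of 3.09 and exceeded the array median on 0 arrays. MRPS25 (mS25) gave 9.95, 9.96 and 9.80 with the combination, 9.88, 9.95 and 9.89 with SGI-110, 10.14, 10.13 and 9.95 with ASTX660 and 10.18, 10.18 and 10.10 with solvent. ASTX660 array 13 at 9.95 lay within the range of the arrays with SGI-110, and the difference was −0.21 ± 0.0433 (SE; adjusted p = 0.0021).

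**Figure D2:**
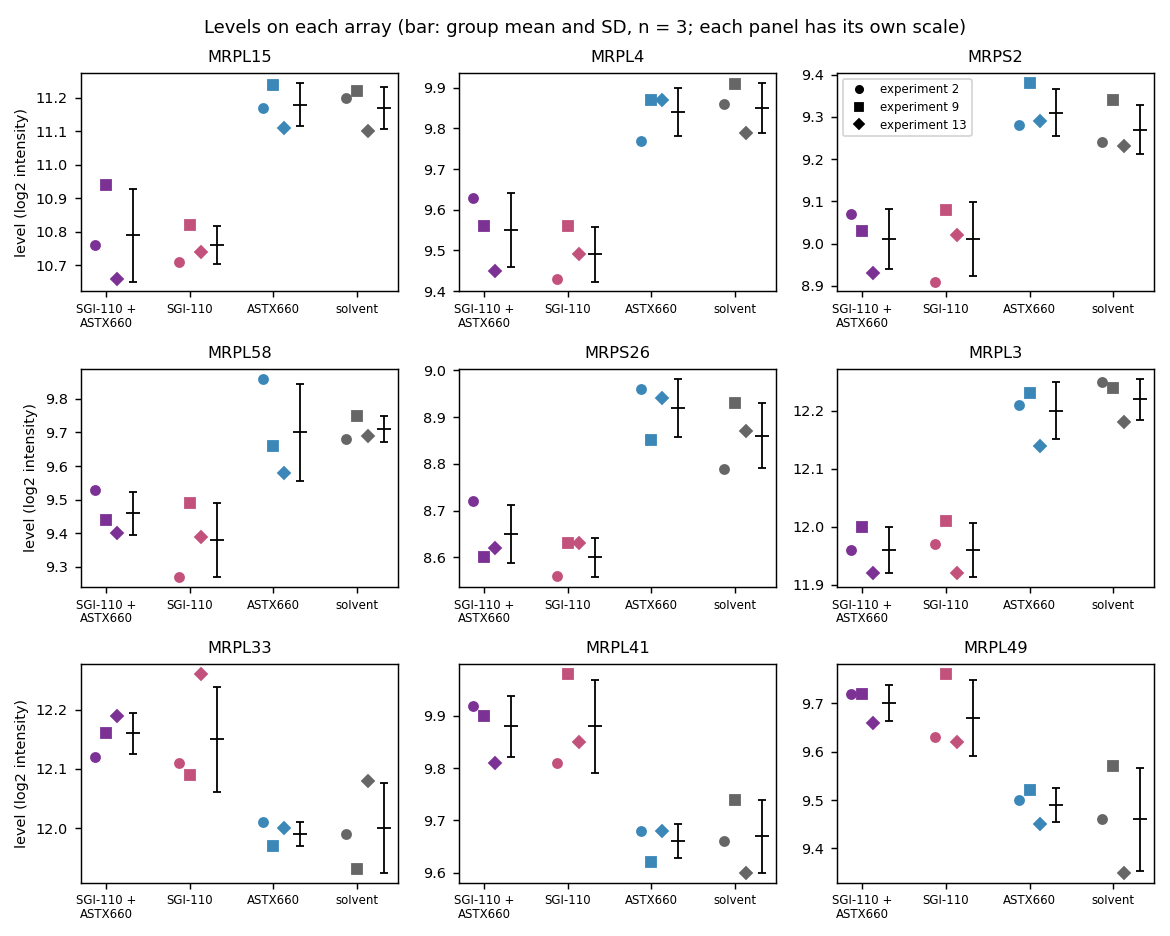
Log2 intensity of 9 genes on each array, from left to right the combination, SGI-110, ASTX660 and solvent, with the marker shape for the experiment and a bar for the group mean and SD (n = 3). MRPL15, MRPL4, MRPS2, MRPL58, MRPS26 and MRPL3 are lower and MRPL33, MRPL41 and MRPL49 higher on all arrays with SGI-110 than on all arrays without it.

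The 5 members with a higher call were MRPL49, MRPL41, MRPL33, MRPL27 and MRPS11. MRPL49 (mL49) is mitochondria-specific and was at 9.72, 9.72 and 9.66 with the combination, 9.63, 9.76 and 9.62 with SGI-110, 9.50, 9.52 and 9.45 with ASTX660 and 9.46, 9.57 and 9.35 with solvent. Every array with SGI-110 exceeded every array without it, and the difference was 0.21 ± 0.0435 (SE; adjusted p = 0.00235). MRPL41 (mL41), also mitochondria-specific, was at 9.92, 9.90 and 9.81 with the combination, 9.81, 9.98 and 9.85 with SGI-110, 9.68, 9.62 and 9.68 with ASTX660 and 9.66, 9.74 and 9.60 with solvent. It too showed no overlap, with a difference of 0.21 ± 0.0414 (SE; adjusted p = 0.00137), or 16% higher. Of its 4 other probe sets, 2 gave 0.26 and 0.18 and the remaining pair −0.01 and −0.08. MRPL33 (bL33m) was at 12.12, 12.16 and 12.19 with the combination, 12.11, 12.09 and 12.26 with SGI-110, 12.01, 11.97 and 12 with ASTX660 and 11.99, 11.93 and 12.08 with solvent. Solvent array 13 at 12.08 came within 0.01 of SGI-110 array 9, and the difference was 0.16 ± 0.0329 (SE; adjusted p = 0.00203). These 3 calls held under all 19 alternative settings.

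The higher calls of MRPL27 and MRPS11 were less firm. MRPL27 (bL27m), whose bacterial counterpart reaches the peptidyl transferase centre, was at 10.87, 10.88 and 10.79 with the combination, 10.80, 10.85 and 10.81 with SGI-110, 10.78, 10.72 and 10.75 with ASTX660 and 10.71, 10.78 and 10.66 with solvent. Its arrays did not overlap, with 10.79 the lowest with SGI-110 and 10.78 the highest without it. The difference of 0.10 ± 0.0311 (SE; adjusted p = 0.0275) missed the threshold without combination array 2 or 9, SGI-110 array 9, ASTX660 array 9 or solvent array 2 or 13 (adjusted p 0.057 to 0.077). With all arrays it missed the threshold after median centring (adjusted p = 0.0706) and without the intensity trend (0.0654). MRPS11 (uS11m) was at 10.55, 10.57 and 10.51 with the combination, 10.49, 10.55 and 10.57 with SGI-110, 10.50, 10.41 and 10.40 with ASTX660 and 10.43, 10.49 and 10.45 with solvent. SGI-110 array 2 lay at 10.49 and ASTX660 array 2 at 10.50, so the groups overlapped. Its difference of 0.09 ± 0.0316 (SE; adjusted p = 0.0387) missed the threshold without combination array 2 or 9, SGI-110 array 9 or 13, ASTX660 array 9 or 13 or solvent array 2 or 13 (adjusted p 0.0689 to 0.0888). With all arrays it missed the threshold after median centring (adjusted p = 0.111), without the filter on low values (0.0603) and without the intensity trend (0.0752).

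The other 22 lower members, MRPL2 and MRPL57 aside, ranged from −0.21 (MRPL24) to −0.09 (MRPL18). They were MRPL14, MRPL16, MRPL18, MRPL20, MRPL21, MRPL24, MRPL30, MRPL36, MRPL39, MRPL40, MRPL48, MRPL9, MRPS12, MRPS17, MRPS18A, MRPS18B, MRPS28, MRPS31, MRPS34, MRPS35, MRPS7 and MRPS9. Of the 36 lower and 5 higher calls, 25 and 3 held under all 19 alternatives. Some calls were lost when 1 array was left out or another setting was used. MRPL16 missed the threshold without combination array 13, SGI-110 array 2 or 13, ASTX660 array 9 or solvent array 9 (adjusted p 0.0538 to 0.0703). MRPL18 missed the threshold without combination array 2 or 13, SGI-110 array 2 or 13, ASTX660 array 2 or solvent array 2 or 9 (adjusted p 0.054 to 0.0977), and with all arrays after median centring (adjusted p = 0.0724), without the filter on low values (0.059) and without the intensity trend (0.083). MRPL21 missed the threshold without solvent array 9 (adjusted p 0.0539). MRPL36 missed the threshold without combination array 13, SGI-110 array 2 or 13, ASTX660 array 2 or 13 or solvent array 2 or 9 (adjusted p 0.0516 to 0.0887), and with all arrays after quantile normalization (adjusted p = 0.0845) and without the intensity trend (0.0766). MRPL40 missed the threshold without combination array 9 or 13, SGI-110 array 2, ASTX660 array 2 or 9 or solvent array 9 (adjusted p 0.0517 to 0.0838). MRPS18A missed the threshold without combination array 2 or 13, SGI-110 array 2 or 9, ASTX660 array 9 or 13 or solvent array 2, 9 or 13 (adjusted p 0.0583 to 0.0918), and with all arrays after median centring (adjusted p = 0.0726) and without the filter on low values (0.0647). MRPS34 missed the threshold without combination array 2 or 13, SGI-110 array 2 or 13, ASTX660 array 9 or 13 or solvent array 9 or 13 (adjusted p 0.059 to 0.0935), and with all arrays after median centring (adjusted p = 0.0621), without the filter on low values (0.0555) and with array weights (0.0569). With all probe sets of a gene averaged, MRPL20 (adjusted p = 0.159), MRPL30 (0.13) and MRPL39 (0.902) missed it too. MRPL39 then had a difference of 0.01, because its other probe set, with a mean level of 3.91 and above the array median on 0 arrays, gave 0.20.

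The 34 members without a call had differences between −0.14 (MRPL55) and 0.07 (MRPL28). They were MRPL10, MRPL11, MRPL13, MRPL17, MRPL19, MRPL22, MRPL23, MRPL28, MRPL32, MRPL34, MRPL37, MRPL38, MRPL42, MRPL43, MRPL44, MRPL45, MRPL46, MRPL47, MRPL51, MRPL52, MRPL54, MRPL55, MRPS10, MRPS14, MRPS15, MRPS16, MRPS18C, MRPS21, MRPS22, MRPS23, MRPS30, MRPS33, MRPS5 and MRPS6. Of the 57 other probe sets of members that exceeded the array median on at least 3 arrays, 31 belong to called members, and 28 of these had the sign of the chosen probe set. The rest belong to members without a call. Some of them were lower than the chosen probe set, such as those of MRPL44 (−0.26 against −0.03) and MRPL52 (−0.22 against −0.06). Others fell less, such as those of MRPL38 (−0.02 against −0.09) and MRPS30 (−0.05 and −0.10 against −0.11), with no test. The probe sets shared with other genes gave −0.02 for MRPS24 and its readthrough transcript, 0.11 for MRPL53 and CCDC142, and −0.06 for MRPL51 and SPTLC1, with no test.

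Mean levels of the members over the 12 arrays ran from 7.69 to 12.09 with a median of 10.03. The brightest 5 probe sets were those of MRPL3, MRPL33, MRPL51, MRPL57 and MRPL47. MRPL51 (mL51) was at 12.10, 12.03 and 11.98 with the combination, 12.01, 12.06 and 11.94 with SGI-110, 12.22, 12.05 and 12 with ASTX660 and 12.14, 12.16 and 12.03 with solvent, with overlapping groups and a difference of −0.08 ± 0.0397 (SE; adjusted p = 0.145). MRPL57 (mL63) was at 11.86, 11.77 and 11.71 with the combination, 11.77, 11.77 and 11.75 with SGI-110, 11.90, 11.83 and 11.82 with ASTX660 and 11.94, 11.93 and 11.87 with solvent. Combination array 2 lay within the range of the arrays without SGI-110, and the difference was −0.11 ± 0.0288 (SE; adjusted p = 0.00952). MRPL47 (uL29m), at the tunnel exit, was at 11.42, 11.32 and 11.34 with the combination, 11.32, 11.38 and 11.34 with SGI-110, 11.46, 11.43 and 11.40 with ASTX660 and 11.43, 11.43 and 11.38 with solvent, a narrow range in every group, with a difference of −0.07 ± 0.0270 (SE; adjusted p = 0.0707). The other probe set of MRPL47, with a mean level of 7.39, gave −0.27. The dimmest 5 were those of MRPL2, MRPL55, MRPL50, MRPS26 and MRPL38. MRPL2 (uL2m), at the heart of the large subunit, was at 7.61, 7.65 and 7.59 with the combination, 7.42, 7.72 and 7.57 with SGI-110, 7.78, 7.82 and 7.86 with ASTX660 and 7.79, 7.73 and 7.76 with solvent. It did not overlap, SGI-110 array 9 lying 0.01 below solvent array 9, and the difference was −0.20 ± 0.0524 (SE; adjusted p = 0.0116). MRPL55 (bL31m) was at 8.43, 8.33 and 8.52 with the combination, 8.22, 8.38 and 8.54 with SGI-110, 8.49, 8.55 and 8.69 with ASTX660 and 8.44, 8.50 and 8.59 with solvent, with wide, overlapping groups and a difference of −0.14 ± 0.0611 (SE; adjusted p = 0.0955). MRPL38 (mL38) was at 8.98, 8.93 and 8.87 with the combination, 8.72, 8.98 and 8.94 with SGI-110, 8.86, 9.05 and 9.01 with ASTX660 and 9.04, 8.98 and 9.03 with solvent. SGI-110 array 2 was the lowest of the 12 arrays for MRPL38, and the difference was −0.09 ± 0.0519 (SE; adjusted p = 0.217). Lower calls occurred among both bright and dim probe sets.

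With arrays matched by experiment number, many members differed in 1 direction throughout. For each of the 3 experiments SGI-110 was set against solvent and the combination against ASTX660, which gives 6 pairs. For the combination and ASTX660 arrays the array deviations correlated weakly in experiments 2 and 9 (0.057 and 0.158) and at 0.539 in experiment 13. Those 3 pairs were not taken as paired, and the counts are a description. The difference was negative in all 6 pairs for 47 of 75 members (62.7%) and for 17.6% of all tested genes. It was positive in all 6 for 6 members (8.0%) and for 17.9% of all tested genes. The median over the members was −0.16, −0.08 and −0.11 for SGI-110 against solvent in experiments 2, 9 and 13, and −0.08, −0.06 and −0.11 for the combination against ASTX660. The same medians over all tested genes lay between −0.03 and 0.01.

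**Figure D3:**
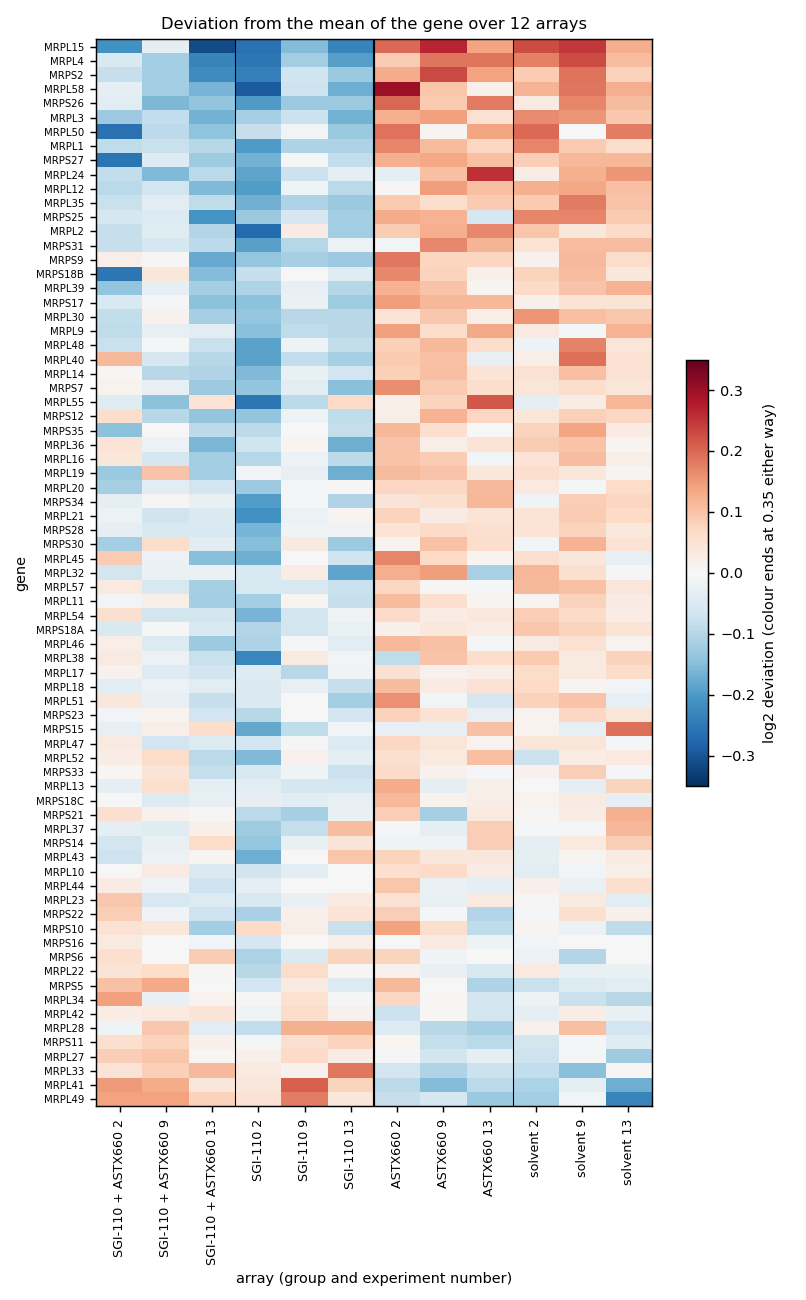
Deviation of each of the 75 genes from its own mean over 12 arrays, in log2 units, with red above and blue below, columns running from the combination and SGI-110 on the left to ASTX660 and solvent on the right and genes sorted by their difference. On SGI-110 array 2, 69 of 75 genes lie below their own mean, and on ASTX660 array 2 only 12 do.

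SGI-110 array 2 held the lowest levels, with a median deviation of −0.12 from the genes' own means and 69 of 75 members below them. The other arrays with SGI-110 had 41 to 59 members below their means, and the arrays without it 12 to 24. On the same arrays 47.9% to 53.6% of all tested genes lay below their means with SGI-110, and 39.4% to 55.2% without it. The lowest number of member calls in the comparison by SGI-110 when 1 array was left out was 34, against 41 with all arrays.

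Against solvent, SGI-110 gave 18 lower and 3 higher calls among the members (24.0% and 4.0%), beside 5.9% and 9.5% of all tested genes. The 3 higher members were MRPL33, MRPL41 and MRPL49. The difference was −0.42 ± 0.0636 (SE; adjusted p = 0.000695) for MRPL15, −0.36 ± 0.0608 (SE; adjusted p = 0.00136) for MRPL4, −0.32 ± 0.0743 (SE; adjusted p = 0.00977) for MRPL58 and −0.26 ± 0.0376 (SE; adjusted p = 0.000457) for MRPL3. The call of MRPL58 was lost without SGI-110 array 2 (adjusted p = 0.0502). MRPL1, MRPL3, MRPL4, MRPL12, MRPL15 and MRPL35 were lower under all 14 alternatives. The count of 21 called members depended on the arrays. It was 10 without SGI-110 array 2 and 10 without solvent array 2, 11 without solvent array 9, 13 without SGI-110 array 13 and 13 without solvent array 13. With the experiment as a block, whose arrays deviated together in this pair of groups, 33 members were lower and 3 higher.

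The combination against solvent gave 17 lower and 3 higher calls (22.7% and 4.0%), beside 5.85% and 12.1% of all tested genes. This comparison shares its solvent arrays with the one just described. MRPL3 differed by −0.27 ± 0.0376 (SE; adjusted p = 0.000353), MRPL15 by −0.39 ± 0.0636 (SE; adjusted p = 0.00103), MRPL50 by −0.29 ± 0.0745 (SE; adjusted p = 0.0169) and MRPS25 by −0.25 ± 0.0612 (SE; adjusted p = 0.011). The call of MRPL50 was lost without combination array 2 (adjusted p = 0.0724), solvent array 2 (0.0738) or solvent array 13 (0.0628). That of MRPS25 was lost without combination array 13 (adjusted p = 0.0554) and with its probe sets averaged (0.18). MRPL3, MRPL4, MRPL12 and MRPL15 were lower under every alternative. The count of 20 was 10 without combination array 13 and 10 without solvent array 9, 11 without solvent array 2 and 12 without solvent array 13. Of all genes called here 67.4% were higher, 77.3% after median centring and 54.1% after quantile normalization, and the called members were 3 higher and 9 lower after median centring and 3 higher and 19 lower after quantile normalization.

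The combination against ASTX660 shares no array with SGI-110 against solvent, although both come from the same experiments. It gave 17 lower and 3 higher calls (22.7% and 4.0%), beside 7.69% and 8.37% of all tested genes. The lower calls common to both comparisons numbered 13, which is 76.5% of the 17 and 72.2% of the 18, and the 3 higher members were MRPL33, MRPL41 and MRPL49 in both. This overlap was not counted over all tested genes, so it cannot be read as particular to the members. The 13 were MRPL1, MRPL3, MRPL4, MRPL9, MRPL12, MRPL14, MRPL15, MRPL35, MRPL39, MRPL58, MRPS2, MRPS26 and MRPS27. Among the 13, MRPL3, MRPL4 and MRPL15 kept both calls under all 14 alternatives. With the combination against ASTX660 the call of MRPL58 held under 4 of the 14, and those of MRPL14, MRPL35 and MRPL39 under 5. With SGI-110 against solvent the call of MRPS27 held under 5, and those of MRPL9, MRPL14 and MRPL39 under 6. The higher calls of MRPL33, MRPL41 and MRPL49 held under 8, 9 and 4 alternatives and in 2, 3 and 0 of the 6 fits that leave out an array for the combination against ASTX660. They held under 8, 9 and 6 alternatives and in 3, 3 and 1 of the 6 such fits for SGI-110 against solvent. The sign was the same in both for 69 of 75 members (92.0%) and for 78.08% of all tested genes. Across the 75 genes Pearson's r between the differences was 0.899, and across all tested genes 0.889. MRPL3, MRPL4, MRPL15, MRPS2 and MRPS26 were lower under every alternative of the combination against ASTX660. The count of 20 was 7 without combination array 13, 9 without ASTX660 array 9, 11 without combination array 2 and 12 without ASTX660 array 13, and 7 when these 2 groups were fitted alone.

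**Figure D4:**
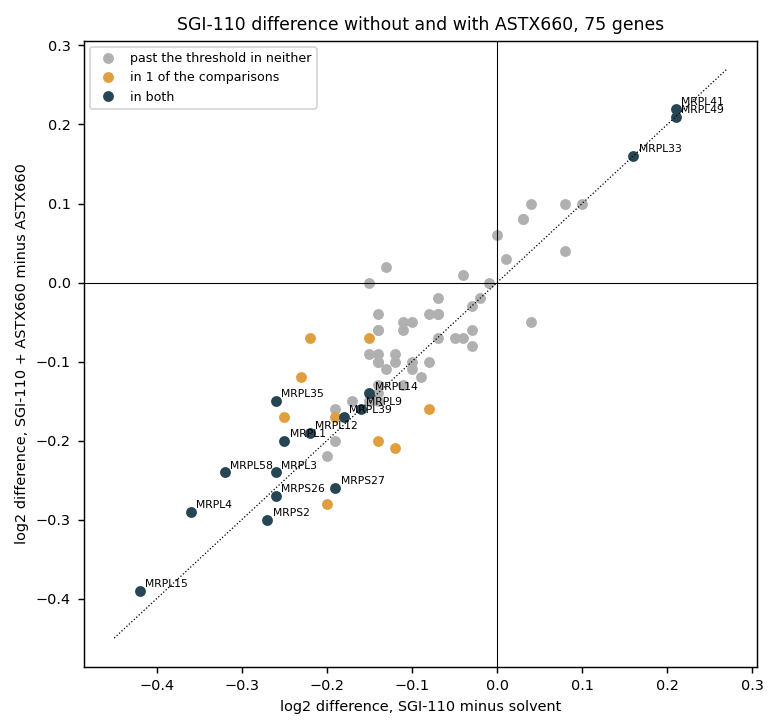
Log2 difference of each of the 75 genes for SGI-110 minus solvent (horizontal axis) and for the combination minus ASTX660 (vertical axis), with the dotted line where both are equal. Dark points are called in both comparisons, orange points in 1 of them and grey points in neither. The 13 lower and 3 higher genes called in both are named.

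ASTX660 brought no call among the members. Against solvent, 0 of 75 members and 0 of 12689 genes (0.0%) passed an adjusted p of 0.05 by limma, and at an unadjusted p under 0.05 the numbers were 0 members and 894 genes. With the experiment as a block, 0 members and 1 gene passed. The member differences ran from −0.10 to 0.09, and no 95% interval reached beyond 0.25 in either direction. The combination against SGI-110 likewise gave 0 members and 0 genes by limma, 0 members and 370 genes at an unadjusted p under 0.05, and 0 members and 10 genes with the block. Here the member differences lay between −0.09 and 0.12, with intervals within 0.26. Their median was 0.03, and 15 of 75 were negative. The median was 0.10 in experiment 2, close to 0 in experiment 9 and −0.02 in experiment 13. SGI-110 array 2, the lowest array, is the one set against the combination in experiment 2.

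The interaction, by how much the combination departed from the added changes of the single agents, was called for 0 members and 0 genes by limma. At an unadjusted p under 0.05 there were 0 members and 204 genes, and with the block 0 members and 0 genes. Member interactions ran from −0.10 to 0.15, and no 95% interval reached beyond 0.35. For MRPL35 the difference was −0.15 ± 0.0452 (SE; adjusted p = 0.0359) with the combination against ASTX660 and −0.26 ± 0.0452 (SE; adjusted p = 0.00165) with SGI-110 against solvent, and the interaction was 0.11 ± 0.0639 (SE; adjusted p = 1). The first of these calls held under 5 of 14 alternatives and in 1 of the 6 fits that leave out an array. It missed the threshold after median centring (adjusted p = 0.0781), without the filter on low values (0.0558) and without the intensity trend (0.0618), and with only the 2 groups fitted (0.12). The second held under all 14. The interaction intervals include values as large as many members' own changes.

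Other genes of mitochondrial translation were lower as well. The counts of the lists below stand beside 14.1% called lower and 15.8% called higher among all tested genes. Of 4 mitochondrial ribosome subunits outside the MRP symbols, 2 were called lower in the comparison by SGI-110. PTCD3 differed by −0.16 ± 0.0496 (SE; adjusted p = 0.0224) and CHCHD1 by −0.11 ± 0.0317 (SE; adjusted p = 0.0197). PTCD3 missed the threshold without combination array 13 (adjusted p = 0.0609), SGI-110 array 13 (0.0599) or solvent array 9 (0.0552), and with its probe sets averaged (0.372). CHCHD1 missed it without SGI-110 array 2 (adjusted p = 0.051) or 9 (0.0539), and without the intensity trend (0.0557). DAP3 gave −0.03 ± 0.0599 (SE; adjusted p = 0.726) and GADD45GIP1 −0.09 ± 0.0428 (SE; adjusted p = 0.145). Of 25 genes for assembly of the mitochondrial ribosome and modification of its RNA, 13 were lower (52.0%) and 0 higher. Among them DDX28, an RNA helicase of large-subunit assembly, differed by −0.31 ± 0.0472 (SE; adjusted p = 0.000232). MTERF3 differed by −0.29 ± 0.0503 (SE; adjusted p = 0.000665), TFB1M, a methyltransferase of the small-subunit RNA, by −0.35 ± 0.0615 (SE; adjusted p = 0.000686), and RPUSD3, a pseudouridine synthase, by −0.22 ± 0.0478 (SE; adjusted p = 0.00337).

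Of 13 translation factors and activators 7 were lower (53.8%) and 0 higher. They included MRRF, the ribosome recycling factor (−0.33 ± 0.0563 SE, adjusted p = 0.000533), MTIF2, an initiation factor (−0.22 ± 0.0404 SE, adjusted p = 0.000908), TUFM, the elongation factor that delivers tRNAs (−0.17 ± 0.0335 SE, adjusted p = 0.0013), and MTFMT, which formylates the initiator tRNA (−0.22 ± 0.0474 SE, adjusted p = 0.00302). Of 18 enzymes that charge mitochondrial tRNAs 9 were lower and 0 higher. FARS2 differed by −0.39 ± 0.0423 (SE; adjusted p = 1.41e-05) and NARS2 by −0.37 ± 0.0387 (SE; adjusted p = 1.09e-05), both with adjusted p-values near that of MRPL3. CARS2 (−0.23 ± 0.0431 SE, adjusted p = 0.00126) and GATB (−0.27 ± 0.0541 SE, adjusted p = 0.00178) missed the threshold with their probe sets averaged (adjusted p = 0.0963 and 0.133). Of 9 genes for transcription and replication of mitochondrial DNA 4 were lower and 0 higher. TWNK, the helicase, differed by −0.29 ± 0.0512 (SE; adjusted p = 0.000729) and TFB2M, a transcription factor, by −0.24 ± 0.0571 (SE; adjusted p = 0.00538), the second missing the threshold with its probe sets averaged (adjusted p = 0.0655). POLRMT, the RNA polymerase, gave −0.15 ± 0.0474 (SE; adjusted p = 0.0302). It missed the threshold without combination array 2 or 13 (adjusted p = 0.0559 and 0.0629), SGI-110 array 2 (0.0769), ASTX660 array 9 (0.0737) or solvent array 9 (0.0785). With all arrays POLRMT missed it without the filter on low values (adjusted p = 0.0528) and with its probe sets averaged (0.153). TFAM gave −0.11 ± 0.0837 (SE; adjusted p = 0.361) and SSBP1 −0.06 ± 0.0322 (SE; adjusted p = 0.159), both without a call.

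The nuclear-encoded subunits of the respiratory chain, most of them in complexes that this ribosome helps to build, had calls in both directions. Of 69 genes 16 were lower (23.2%) and 10 higher (14.5%), with a median of −0.02. NDUFV2 of complex I differed by −0.15 ± 0.0267 (SE; adjusted p = 0.000787), CYC1 of complex III by −0.17 ± 0.0327 (SE; adjusted p = 0.00147) and ATP5MC3 of the ATP synthase by −0.14 ± 0.0188 (SE; adjusted p = 9.24e-05), while NDUFB1 of complex I was higher by 0.15 ± 0.0266 (SE; adjusted p = 0.000944). Of 51 cytosolic ribosomal protein genes 0 were lower and 3 higher (5.88%), with a median of −0.01. The differences between these lists and the members were not tested.

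**Figure D5:**
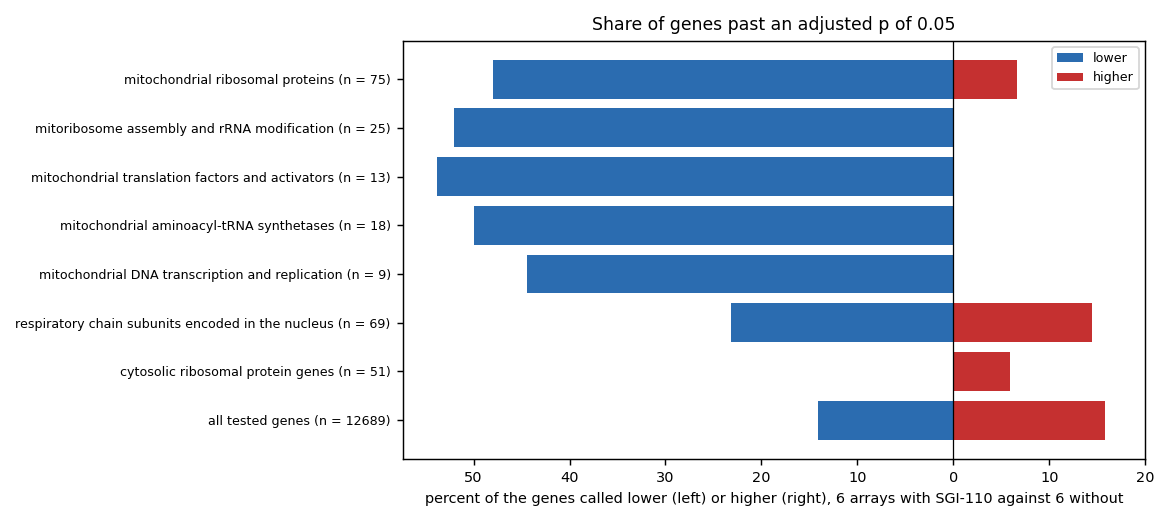
Percent of the genes of each list called lower (blue, to the left) or higher (red, to the right) in the comparison of 6 arrays with SGI-110 against 6 without it, at an adjusted p under 0.05. Mitochondrial ribosomal proteins have 48.0% lower and 6.67% higher, cytosolic ribosomal proteins 0% lower and 5.88% higher, and all tested genes 14.1% lower and 15.8% higher.

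Of 8 tested nuclear regulators of mitochondrial genes 4 were lower and 1 higher in the comparison by SGI-110, beside 14.1% and 15.8% of all tested genes. MYC, a transcription factor known to act on genes of ribosomes and mitochondria, differed by −0.46 ± 0.0466 (SE; adjusted p = 7.23e-06), more than any member. PPARGC1B, a coactivator, differed by −0.45 ± 0.0746 (SE; adjusted p = 0.000468), NRF1, nuclear respiratory factor 1, by −0.21 ± 0.0494 (SE; adjusted p = 0.005) and PPRC1, a coactivator of the same family as PPARGC1B, by −0.19 ± 0.0511 (SE; adjusted p = 0.0117). GABPA, the DNA-binding subunit of the ETS factor GABP, gave 0.02 ± 0.0733 (SE; adjusted p = 0.839). Its partner GABPB1 was higher by 0.22 ± 0.0664 (SE; adjusted p = 0.0231), a call that was lost without combination array 9 (adjusted p = 0.0568), SGI-110 array 9 (0.0627), ASTX660 array 13 (0.0523) or solvent array 9 (0.0525). The part of these regulators in the members' levels was not tested.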

How the data were processed

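RNA of 12 samples of ML-2 cells was measured on Affymetrix arrays, 3 in each of 4 groups. Per the labels' protocols, 100 ng of total RNA went into each labelled cRNA. The deposited values are log2 intensities made with RMA in the affy package, per the submitters' processing notes, which name no version. The sources used here do not say whether the arrays were normalized in 1 run. RMA log2 differences compress large ratios of dim probe sets.

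Probe sets were named from the platform annotation. A gene was tested when its brightest probe set exceeded the array median on at least 3 arrays, which kept 12689 of 19775 genes. limma 3.58.1 in R 4.3.3 was fitted with 4 group means on all 12 arrays, with variances moderated along an intensity trend. In each of 7 comparisons p-values were adjusted over the tested genes by Benjamini-Hochberg. The fit had 8 residual degrees of freedom. The number of arrays limits the precision: the median standard error was 0.085 for 2 groups and 0.0601 for the comparison by SGI-110. Intervals are at 95% confidence. The fit was checked on simulated data. Tables were handled in Python 3.11.15 with pandas 2.3.3.

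The members and lists were chosen with earlier results of these data known. Every member could be named. Values on every array were given for the 8 called members with the largest falls and rises in each of 3 comparisons (SGI-110 against solvent, the combination against solvent, and the comparison by SGI-110), and for the 5 brightest and 5 dimmest. Other lists gave up to 4 genes with the smallest adjusted p for SGI-110 against solvent. MYC, NRF1, GABPA, PPRC1, PPARGC1B, TFAM and POLRMT were named whatever their values. MRPL12, MRPL24 and MRPL46 were also given values, chosen after these were seen.

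The numbers 2, 9 and 13 in the sample titles were read as the independent experiments of the design. Deviations from the group mean correlated at 0.377, 0.367 and 0.572 between SGI-110 and solvent arrays of the same number, and these were taken as paired. Between combination and solvent arrays the correlations were 0.15, 0.159 and 0.541, and these were also taken as paired. Between combination and ASTX660 arrays they were 0.057, 0.158 and 0.539, and those arrays were not. In experiments 9 and 13 the combination arrays correlated almost equally with solvent and with ASTX660 arrays, so these values hardly separate the pairings. No correlations between arrays of different numbers were set beside them, and the main fit used no pairing. Promoter sequences and start sites are RefSeq's (GRCh38.p14). Alternatives were median centring, quantile normalization, no filter, the mean of all probe sets, no trend, the experiment as a block, array weights, leaving out each array, and fitting only the 2 groups compared.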

Additional observations from a re-analysis of the deposited data

How the results depend on the processing

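In the comparison by SGI-110 the 41 member calls became 36 to 51 under the 7 alternatives that kept all arrays and 34 to 40 when 1 array was left out, with more lower than higher calls each time. With the experiment as a replicate block the count was 51 (46 lower, 5 higher), and that block was not warranted by the pairing check for the combination and ASTX660 arrays. SGI-110 against solvent gave 21 calls, 12 after median centring, 12 without the intensity trend, 36 with the experiment block, and 10 to 16 with 1 array left out. The combination against solvent gave 20 calls, 12 after median centring and 10 to 16 with 1 array left out, and 25 with the block. The pairing behind that block rests on low correlations in experiments 2 and 9 (0.15 and 0.159). The combination against ASTX660 gave 20 calls, 10 after median centring, 10 without the trend, 7 with only the 2 groups fitted, and 7 to 17 with 1 array left out. The block gave 29 there, and those arrays, with low correlations in experiments 2 and 9 (0.057 and 0.158), were not taken as paired. The cause of these changes was not tested, except that leaving out an array or fitting 2 groups lowers the number of arrays. The interaction, ASTX660 against solvent and the combination against SGI-110 kept 0 member calls under every alternative that was run, and the block changed no other member count. Fitting only 2 groups was not run for the interaction and the comparison by SGI-110, which use all groups.

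Over all named genes and settings, 2087 values kept direction and side of the threshold, 234 missed it, 33 newly passed it and 11 changed sign. None of those 11 was called, and their cause was not tested. With 1 array left out, MRPL51 in the combination against ASTX660 ran from −0.097 to 0.012, the highest being without ASTX660 array 2. DAP3 in the comparison by SGI-110 ran from −0.072 to 0.007, being 0.007 without combination array 2 and 0.005 without SGI-110 array 2, and was 0.039 with its probe sets averaged. DAP3 in SGI-110 against solvent ran from −0.071 to 0.082, being −0.017 without SGI-110 array 9, −0.048 without SGI-110 array 13 and −0.071 without solvent array 2. GABPA in the comparison by SGI-110 ran from −0.033 to 0.072, being −0.033 without combination array 9, −0.001 without SGI-110 array 2 and −0.009 without ASTX660 array 9. GABPA in SGI-110 against solvent ran from −0.014, without SGI-110 array 2, to 0.101. The scalings moved the median of all tested genes by less than 0.1 log2 units. In the comparison by SGI-110 that median was −0.00464 in the main fit, −0.00831 after median centring and −0.0162 after quantile normalization. Precision is limited by 3 arrays in each group.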
